A study of Mus musculus with 20 samples.

Results

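The genes described here are 10 C-type lectin receptors of mouse macrophages, of 51456 gene symbols in the deposited tables. They are the Dectin-1 and Dectin-2 family receptors Clec7a, Clec4n, Clec4d, Clec4e and Clec4b1, the DCIR genes Clec4a1, Clec4a2 and Clec4a3, and the receptors Clec12a and Clec5a. They were taken by symbol, and the list was chosen by family with the measured levels in KO, R47H and WT already known, so the differences between these groups are given as a description and carry no p-value. All 10 averaged 1 FPKQ or more across the 20 libraries, as did 10843 genes in all. FPKQ is the authors' unit for the level of a gene, read here as fragments per kilobase of transcript on a library scale set by a quantile.

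The sequenced RNA came from bone-marrow-derived macrophages, cells grown from marrow progenitors with the growth factor CSF-1 (M-CSF). One group of 5 libraries was labelled TREM2 5bp KO (KO below), another group of 5 was labelled TREM2 R47H KI (R47H), and 10 libraries were labelled WT. TREM2 is a lipid-sensing receptor of myeloid cells, and R47H is an amino acid substitution in it that is linked to Alzheimer's disease. All mice were C57BL/6 and 4 to 5 months old, all cultures received 50 ng/ml CSF-1 for 6 days, and the labels name no lectin ligand. Per the labels' protocols the wild-type mice were littermates of the mutants, with 5 animals per genotype, and no label ties a WT library to one of the mutant lines. No label says outright that the 10 WT libraries are 10 animals, so p-values measure the spread between these libraries, which may be technical in part. The cells are a culture model, in which no microbe, brain tissue or plaque is present.

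C-type lectin receptors bind sugars or lipids of microbes and of dying cells. Some of them activate the cell. Dectin-1 (Clec7a) binds beta-glucan and has its own signalling motif. Dectin-2 (Clec4n), Mincle (Clec4e), MCL (Clec4d) and DCAR (Clec4b1) pair with the adaptor Fcer1g, and MDL-1 (Clec5a) pairs with Tyrobp (DAP12), which is also the adaptor of TREM2. Below these adaptors the kinase Syk and the scaffold Card9 lead to NF-kB and to cytokine genes. Other receptors of the family, such as DCIR (Clec4a2) and MICL (Clec12a), carry an inhibitory motif that recruits phosphatases.

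Before the lectins, the target of the study was checked. Trem2 (chr17:48346401-48354147, GRCm38) lay between 23.7 and 24.8 FPKQ in the KO libraries, between 496 and 794 FPKQ in the R47H libraries and between 690.5 and 901 FPKQ in the WT libraries. The KO range was far below both other groups. The R47H range overlapped the WT range, but R47H Rep1, Rep4 and Rep5 lay below every WT library. Trem2 was called as lower in R47H than in WT (log2 difference -0.33, limma adjusted p = 0.0110). Macrophage markers summed to between 35800 and 38600 FPKQ in KO, 29100 and 32700 in R47H and 25700 and 29300 in WT, and most of each sum was Lyz2, at a mean of 29650 FPKQ in KO, 23930 in R47H and 21000 in WT. By limma the 10 markers went both ways. In KO 5 were higher and 3 lower, the lower ones being Cd14 (log2 difference -1.26), Itgam (-0.55) and Fcgr1 (-0.43). In R47H 6 were higher and 2 lower. By the same test 28.2% of all genes were higher and 23.7% lower in KO, and 13.4% and 7.83% in R47H. Markers of T cells summed to at most 0.589 FPKQ in KO, 0.454 in R47H and 0.568 in WT, and those of NK cells to at most 1.47, 1.11 and 1.57 FPKQ in the same order, with Gzma at 0 in all 20 libraries. Conventional dendritic cell markers summed to 3.82 to 5.08 FPKQ in KO, 3.86 to 9.18 in R47H and 3.46 to 6.01 in WT. At low levels, sums of erythroid and stromal markers did not overlap between KO and WT: the erythroid list summed to 2.28 to 2.68 FPKQ in KO, 1.07 to 1.78 in R47H and 0.475 to 1.39 in WT, and the stromal list to 0.737 to 1.89 FPKQ in KO, 0.0895 to 0.833 in R47H and 0.187 to 0.428 in WT. Of these lists Epor alone was tested, and it rose in KO (0.90, limma adjusted p = 1.78e-08) and R47H (0.50, limma adjusted p = 0.000267). The part of these markers in the levels of the lectins was not tested. R47H Rep2 and R47H Rep3 stood apart on the second principal component, at -26.3 and -21.5 where the other libraries lay between -3.73 and 12.3. Results that change without them are given with both values.

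All 10 genes lie on chromosome 6. In GENCODE M21 (GRCm38), Clec4a1 at chr6:122921848-122934619, Clec4a3 at chr6:122952515-122969875, Clec4b1 at chr6:123049962-123071555, Clec4a2 at chr6:123106428-123143999, Clec4n at chr6:123229843-123247021 and Clec4d at chr6:123262111-123275265 follow each other on the plus strand. Clec4e, at chr6:123281789-123289870 on the minus strand, closes this cluster of 7 members, which spans 368 kb. A second cluster of 130.0 kb holds Clec12a (chr6:129342691-129365303, plus strand) and Clec7a (chr6:129461591-129472779, minus strand), and Clec5a stands alone at chr6:40574894-40585821 on the minus strand. GENCODE M21 types Clec7a as a polymorphic pseudogene and the other 9 as protein coding. The genes are paralogs, but few of their transcript windows of 75 bases, the length of a read, occur in another gene. The longest transcript of Clec4a2 shares 4.03% of its windows with Clec4a4 or Clec4b1, that of Clec4b1 shares 1.19% with Clec4a2, and the other 8 share none, so the levels of Clec4a2 and Clec4b1 are slightly less certain.

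Promoter sequence from RefSeq (GRCm38.p6) was at hand for 9 of the 10 members, all but Clec4n. The windows of 250 bases before the transcription start are shown for 3 genes, the DCIR-type gene with the largest difference in KO (Clec4a1) and the adjacent pair Clec4d and Clec4e, which differed from WT to unlike extents. Capitals mark matches to the searched motifs, and no match in these 3 windows overlaps another.
Clec4a1, chr6:122921598-122921847, plus strand: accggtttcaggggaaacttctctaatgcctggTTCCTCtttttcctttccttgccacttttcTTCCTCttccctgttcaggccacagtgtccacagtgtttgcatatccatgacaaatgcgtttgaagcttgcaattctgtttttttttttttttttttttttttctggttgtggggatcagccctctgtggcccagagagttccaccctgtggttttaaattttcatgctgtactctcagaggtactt
Clec4d, chr6:123261857-123262106, plus strand: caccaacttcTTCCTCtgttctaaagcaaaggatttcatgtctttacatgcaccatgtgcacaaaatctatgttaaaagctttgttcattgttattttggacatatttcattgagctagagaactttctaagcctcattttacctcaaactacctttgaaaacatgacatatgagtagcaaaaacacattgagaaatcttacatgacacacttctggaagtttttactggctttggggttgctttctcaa
Clec4e, chr6:123289872-123290121, minus strand: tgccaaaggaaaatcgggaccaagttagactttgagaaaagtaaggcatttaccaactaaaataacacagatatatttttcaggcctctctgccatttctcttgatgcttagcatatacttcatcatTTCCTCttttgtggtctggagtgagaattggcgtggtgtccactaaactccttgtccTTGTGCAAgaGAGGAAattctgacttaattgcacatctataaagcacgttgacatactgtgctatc
The core GAGGAA bound by PU.1, the master factor of macrophages encoded by Spi1, was searched on both strands and was found in 8 of the 9 genes, all but Clec4a2. It is a common string, present in 25.9% of 27025 genes of the table. The C/EBP pattern TTGCNNAA was found in Clec4e at position -66 from the start and in Clec12a at position -140, and in 10.8% of all genes. The AP-1 pattern TGANTCA was found in Clec12a, and in 7.82% of all genes. The E-box CACGTG was found in no member, and in 6.86% of all genes. The longest run of bases shared by the windows of different members was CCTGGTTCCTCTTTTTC, at position -222 of Clec4a1 and at position -55 of a second start of Clec4a3. The windows precede RefSeq starts, and 2 of those described lie well inside the GENCODE gene. That of Clec12a, chr6:129349994-129350243, has all 250 bases in GENCODE exons. That of Clec4a2, chr6:123122440-123122689, has 68 bases in exons. Matches in Clec12a, and the lack of the PU.1 core in Clec4a2, may thus not concern the promoter in use. These matches describe the letters of the windows only.

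Clec4n, the gene of Dectin-2, which recognises mannose-rich sugars of fungi, differed most. Its levels in the KO libraries Rep1 to Rep5 were 110.2, 117, 128, 127 and 134 FPKQ. In R47H they were 31.8, 44.1, 35.7, 28.1 and 40.8 FPKQ, and in WT they ran from 8.07 to 14.8 FPKQ with a median of 10.0. Each KO library was above each R47H library, and each R47H library was above each WT library. The difference from WT on the log2(FPKQ + 1) scale was 3.42 (SE 0.11) in KO and 1.66 (SE 0.11) in R47H, the 3rd and the 4th largest absolute difference among the 10843 genes. On the linear scale the KO mean was 11.5 times and the R47H mean 3.37 times the WT mean. R47H was lower than KO by a log2 difference of -1.76 (SE 0.13). With a pseudocount of 5 these differences from WT were 3.04 in KO and 1.38 in R47H.

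The adjacent genes Clec4d and Clec4e encode MCL and Mincle, receptors for mycobacterial glycolipid that form a complex with each other. Clec4d, the highest member in both mutants, was at 391, 425, 434, 448 and 392 FPKQ in KO. In R47H it was at 433, 453, 425, 332 and 361 FPKQ, and in WT between 229 and 302 FPKQ with a median of 262. Both mutants lay above all WT libraries and overlapped each other. The log2 difference was 0.68 (SE 0.07) in KO against WT, 0.61 (SE 0.07) in R47H against WT and -0.07 (SE 0.08) in R47H against KO, the last with a 95% interval from -0.24 to 0.11. Clec4e stood far below that level, with 30.7 ± 2.43 FPKQ in KO, 27.3 ± 5.87 in R47H (SD, n = 5 each) and 24.1 ± 4.30 in WT (SD, n = 10). Its ranges overlapped in all 3 comparisons, and its log2 difference was 0.35 (SE 0.12) in KO and 0.17 (SE 0.12) in R47H.

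Clec4b1 (DCAR) was the lowest member, at 3.43, 2.87, 3.43, 3.94 and 3.40 FPKQ in KO. In R47H it was at 6.42, 8.23, 3.56, 6.02 and 6.01 FPKQ, and in WT between 3.51 and 6.35 FPKQ with a median of 4.58. It was the single member of the Clec4 cluster whose mean was lower in KO than in WT, with a log2 difference of -0.34 (SE 0.13). R47H was higher than KO by 0.64 (SE 0.15), and all 3 pairs of ranges overlapped. An estimated 59 to 153 fragments per library stood behind these values, so counting error alone was 12.5% in the R47H library with the fewest.

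The 3 DCIR genes had higher means in both mutants than in WT, with KO above R47H. Clec4a1 was at 159.6, 160.3, 136, 153 and 146 FPKQ in KO. In R47H it was at 102, 117, 69.5, 102 and 127 FPKQ, and in WT between 44.4 and 74.0 FPKQ with a median of 57.8. KO lay above both other groups, and 1 R47H library, Rep3, fell inside the WT range. Clec4a2, the receptor with the inhibitory motif, averaged 112 ± 9.49 FPKQ in KO, 83.7 ± 11.8 in R47H (SD, n = 5 each) and 54.9 ± 5.55 in WT (SD, n = 10). Clec4a3 averaged 130 ± 6.73 FPKQ in KO, 88.3 ± 13.6 in R47H and 52.5 ± 4.83 in WT with the same n. For Clec4a2 and Clec4a3 no range overlapped another. The log2 differences from WT in KO were 1.40 (SE 0.12) for Clec4a1, 1.01 (SE 0.08) for Clec4a2 and 1.29 (SE 0.08) for Clec4a3, and in R47H they were 0.83 (SE 0.12), 0.59 (SE 0.08) and 0.73 (SE 0.08) in the same order of genes. R47H was lower than KO by -0.56 (SE 0.14), -0.42 (SE 0.09) and -0.56 (SE 0.09).

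Clec7a (Dectin-1) was at 299.8, 307, 388, 342 and 360.3 FPKQ in KO. In R47H it was at 293, 215, 215, 259 and 306 FPKQ, and in WT between 137 and 262 FPKQ with a median of 181. KO lay above all WT libraries, while R47H overlapped both other groups. The log2 difference was 0.87 (SE 0.12) in KO against WT, 0.47 (SE 0.12) in R47H against WT and -0.41 (SE 0.14) in R47H against KO.

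Clec12a (MICL), an inhibitory receptor for uric acid crystals of dead cells, went the other way in KO. Its levels were 138, 145, 139.6, 146 and 145 FPKQ in KO. In R47H they were 287, 315, 313, 251.9 and 277 FPKQ, and in WT between 287 and 371 FPKQ with a median of 307. The KO libraries lay close together and below all others, and R47H overlapped WT. The log2 difference was -1.11 (SE 0.06) in KO against WT, 1.01 (SE 0.07) in R47H against KO and -0.11 (SE 0.06) in R47H against WT, the last with a 95% interval from -0.23 to 0.01. Clec12a and Clec7a, which lie in 1 cluster with Clec12b, Clec1b, Clec9a and Clec1a between them, had differences of opposite sign in KO.

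Clec5a (MDL-1) averaged 26.5 ± 1.43 FPKQ in KO, 25.4 ± 4.37 in R47H (SD, n = 5 each) and 27.5 ± 3.44 in WT (SD, n = 10). Its ranges overlapped in all 3 comparisons, and its log2 difference from WT was -0.05 (95% interval from -0.23 to 0.14) in KO and -0.12 (95% interval from -0.31 to 0.07) in R47H.

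**Figure D1:**
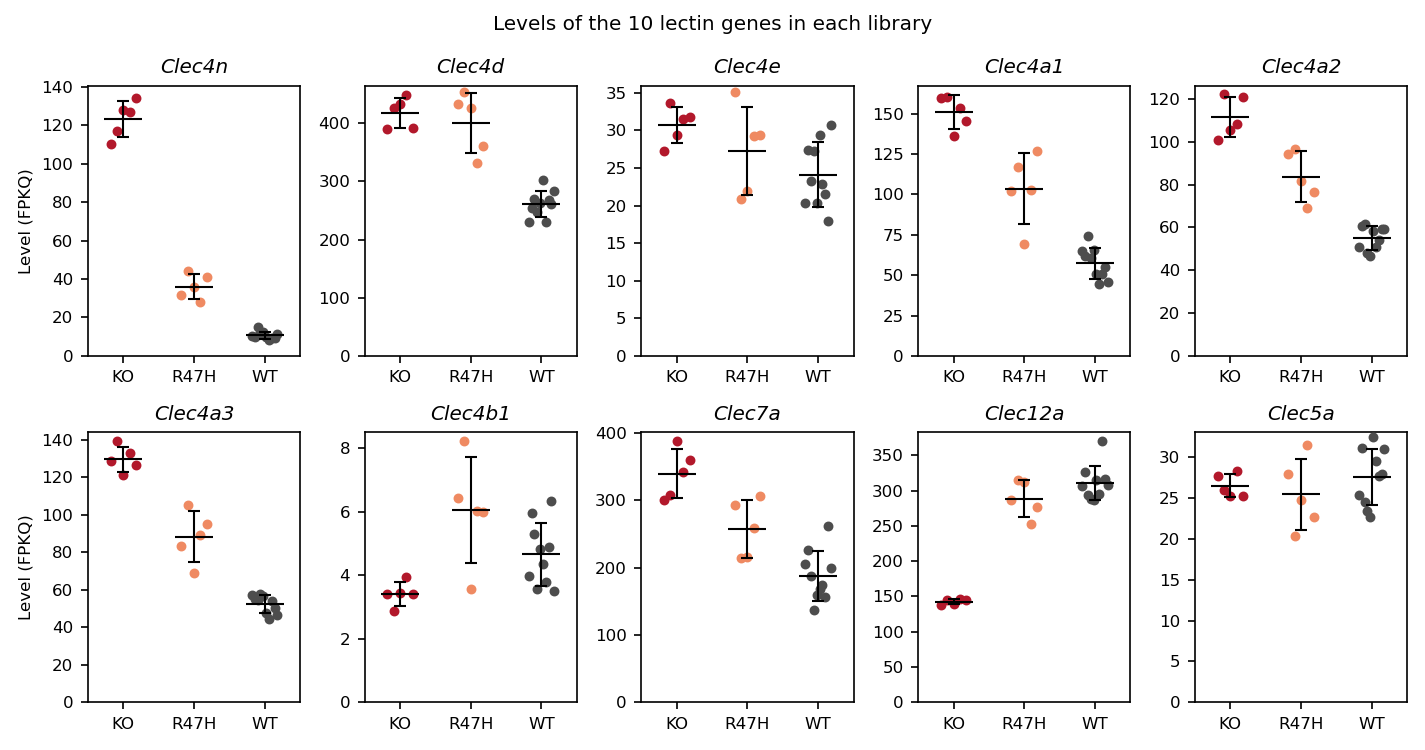
Level in FPKQ (vertical axis, from 0, a scale of its own for each gene) of the 10 lectin genes in each library of KO, R47H and WT. Points are libraries, bars are the mean with the SD; Clec4n falls into 3 separate groups around 123, 36.1 and 10.7 FPKQ, and Clec12a is near 143 FPKQ in KO and near 288 and 311 FPKQ in R47H and WT.

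**Figure D2:**
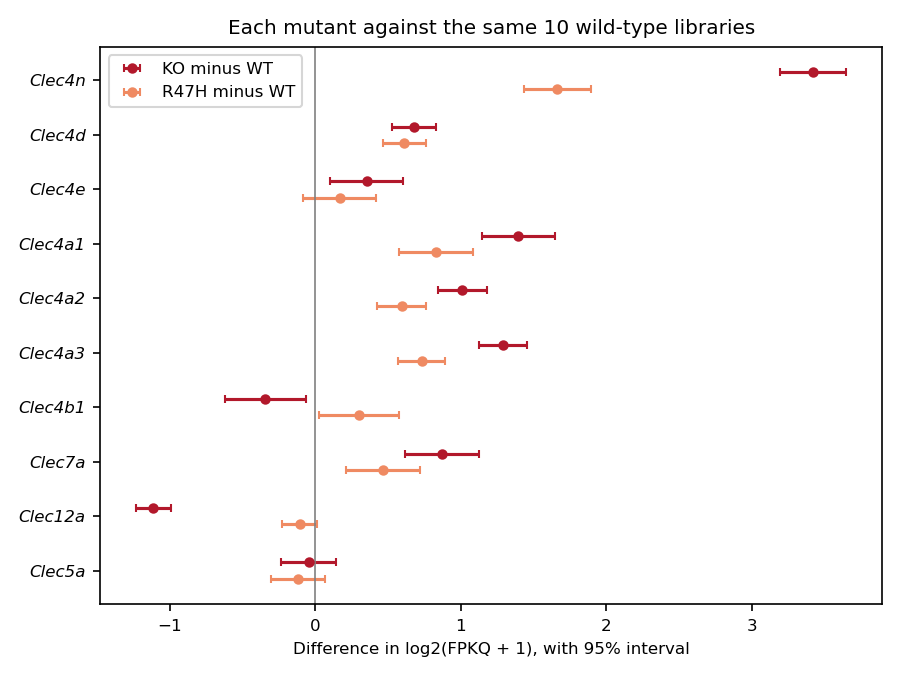
Difference in log2(FPKQ + 1) (horizontal axis) of KO and of R47H from the same 10 WT libraries for each lectin gene, with the 95% interval of the limma fit. Clec4n is highest in both mutants at 3.42 and 1.66, and Clec12a is at -1.11 in KO and -0.11 in R47H.

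Counted by the threshold used for all genes (limma, adjusted p under 0.05), 7 members were higher and 2 lower in KO against WT. Of all 10843 genes, 52% were called in that comparison, 28.2% higher and 23.7% lower. In R47H against WT 6 members were higher and 0 lower, where 21.2% of all genes were called, 13.4% higher and 7.83% lower. In R47H against KO 2 members were higher (Clec4b1 and Clec12a) and 5 lower, where 40.7% of all genes were called, 22.8% higher and 18% lower. The median log2 difference of the members was 0.78 in KO and 0.53 in R47H against WT, and that of all tested genes was 0.01 and 0.04. Members above every WT library numbered 6 in KO and 4 in R47H, where 15.4% and 3.77% of all genes were so placed. Members below every WT library numbered 1 in KO and 0 in R47H, where 13.3% and 3.14% of all genes were so placed. Between the mutants, 1 member was above and 4 were below every KO library in R47H, where 12.3% and 10.8% of all genes were so placed. Since these contrasts were in view when the genes were listed, the counts describe where the members stand against a threshold common to all genes, and nothing is read from them. KO and R47H were set against the same WT libraries. Some calls were at the edge of the threshold. In KO Clec4b1 was not called with either WT set alone, nor without any 1 of WT Rep2, Rep3, Rep8 and Rep9 or KO Rep1, Rep2, Rep3 and Rep5. Clec4e was not called in KO against WT Rep6 to Rep10 alone, without KO Rep2 or with equal library sums. In R47H against WT Clec7a was not called with equal library sums, Clec4b1 was called as higher without R47H Rep3, and Clec12a was called as lower with quantile normalization and with equal library sums. Without both R47H Rep2 and Rep3, 7 members were higher and 1 lower there, Clec4e and Clec12a being added. In R47H against KO Clec7a was not called without those 2 libraries together, nor without any 1 of KO Rep3, KO Rep5, R47H Rep2 and R47H Rep3, and Clec4d was called as lower with quantile normalization.

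The make-up of the group changed with its levels. The 10 genes summed to 1476 ± 53.5 FPKQ in KO, 1317 ± 86.4 in R47H (SD, n = 5 each) and 991 ± 58.6 in WT (SD, n = 10), and the KO and R47H ranges lay above that of WT. In KO the order of levels was Clec4d, Clec7a, Clec4a1, Clec12a, Clec4a3, Clec4n, Clec4a2, Clec4e, Clec5a and Clec4b1. Only the steps below Clec4d, Clec7a, Clec4a2 and Clec5a separated neighbours without overlap of their KO ranges. In R47H the order was Clec4d, Clec12a, Clec7a, Clec4a1, Clec4a3, Clec4a2, Clec4n, Clec4e, Clec5a and Clec4b1, with separate ranges below Clec4d, Clec7a, Clec4a2 and Clec5a. In WT Clec12a led, followed by Clec4d, Clec7a, Clec4a1, Clec4a2, Clec4a3, Clec5a, Clec4e, Clec4n and Clec4b1, and ranges were separate below Clec7a, Clec4a3, Clec4e and Clec4n. Clec12a made up 9.67 ± 0.267% of the sum in KO, 21.9 ± 1.82% in R47H (SD, n = 5 each) and 31.4 ± 2.06% in WT (SD, n = 10). Clec4n made up 8.35 ± 0.455% in KO, 2.73 ± 0.401% in R47H and 1.08 ± 0.214% in WT. This order rests on the reading of FPKQ as a value per kilobase, which the sources used here do not define.

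The R47H libraries varied more than the KO libraries for each of the 10 genes. The coefficient of variation was 10.8% in KO and 16.5% in R47H for Clec7a, 5.19% and 15.3% for Clec4a3, and 2.57% and 9.08% for Clec12a. Within R47H, Rep2 had the highest value of Clec4n, Clec4d, Clec4a2, Clec4a3, Clec4b1 and Clec12a and the lowest of Clec4e, Clec7a and Clec5a, and Rep3 had the lowest value of Clec4a1, Clec4a3 and Clec4b1. R47H Rep4 had the lowest value of Clec4n, Clec4d, Clec4a2 and Clec12a and also of Trem2. In a culture of mixed cells, fewer cells of a type and less RNA per cell cannot be told apart.

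The wild-type libraries allowed a comparison that had not served to choose the genes, WT Rep6 to Rep10 against WT Rep1 to Rep5. Of the 10 members 1 passed the test and was lower, where 6.51% of all genes passed, 3.63% higher and 2.88% lower. Clec4a1 was at 50.8, 44.4, 51.0, 54.7 and 46.0 FPKQ in WT Rep6 to Rep10 and at 65.1, 61.6, 74.0, 60.8 and 65.4 FPKQ in WT Rep1 to Rep5. The sets did not overlap, with a log2 difference of -0.40 (SE 0.11, limma adjusted p = 0.0367, two-sided exact permutation p = 0.00794, the smallest that dividing 10 libraries into 5 and 5 allows). The limma call was lost without any 1 of 8 of the 10 WT libraries (all but Rep2 and Rep9), at adjusted p between 0.0554 and 0.101. Clec4a3 averaged 48.7 ± 3.65 FPKQ in WT Rep6 to Rep10 and 56.4 ± 1.46 FPKQ in WT Rep1 to Rep5 (SD, n = 5 each), also without overlap (as in 11.4% of all genes), but did not pass (log2 difference -0.21, SE 0.08, limma adjusted p = 0.117, exact permutation p = 0.00794). Clec4n gave -0.27 (SE 0.11, limma adjusted p = 0.157, exact permutation p = 0.0476) and Clec5a gave 0.22 (SE 0.09, limma adjusted p = 0.162, exact permutation p = 0.0476). For the other 6 members the exact permutation p lay between 0.190 and 0.913. Against WT Rep6 to Rep10 alone the difference of Clec4a1 was 1.59 in KO and 1.03 in R47H, and against WT Rep1 to Rep5 alone it was 1.20 in KO and 0.63 in R47H.

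**Figure D3:**
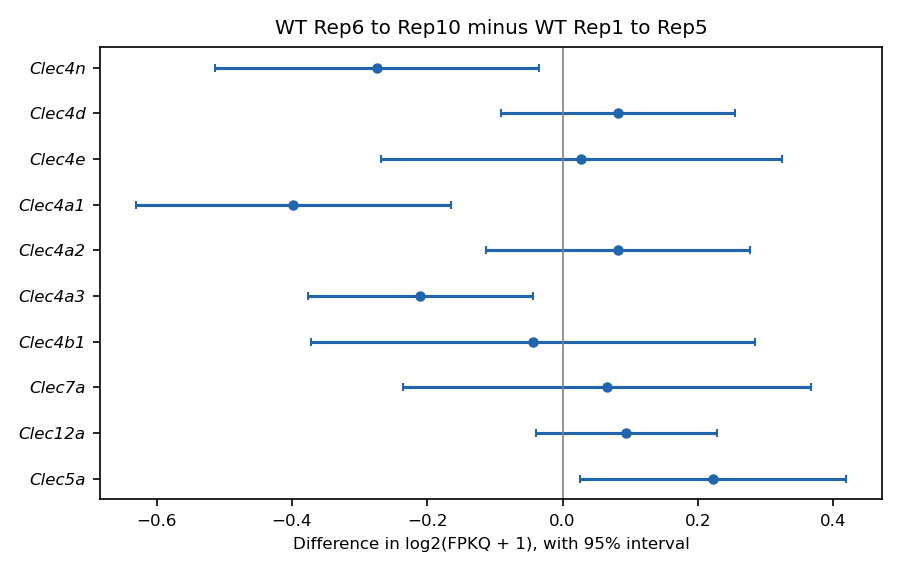
Difference in log2(FPKQ + 1) (horizontal axis) between WT Rep6 to Rep10 and WT Rep1 to Rep5 for each lectin gene, with the 95% interval of the limma fit. Clec4a1 lies lowest at -0.40 and Clec5a highest at 0.22.

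Neighbouring genes on the chromosome are given for comparison. Calls are common in these data, at 52% of all genes in KO against WT and 21.2% in R47H against WT. Within 300 kb of the Clec4 cluster 5 other protein-coding genes were tested. In KO against WT, Dppa3 fell (log2 difference -1.15, SE 0.22, limma adjusted p = 0.000121), as did the glucose transporter Slc2a3 (-0.37, SE 0.10, limma adjusted p = 0.00363) and the complement receptor C3ar1 (-0.15, SE 0.06, limma adjusted p = 0.0401). The call of Slc2a3 in KO was lost against WT Rep6 to Rep10 alone, and that of C3ar1 was lost with quantile normalization and without any 1 of WT Rep1 to Rep5, WT Rep9 or KO Rep1 to Rep4. Foxj2 (0.08, SE 0.05) and Necap1 (0.03, SE 0.05), the gene next to Clec4a1, did not pass. In R47H against WT 1 of the 5 passed, Slc2a3 (-0.53, SE 0.10, limma adjusted p = 0.000538), and C3ar1 (0.13, SE 0.06) passed as higher without R47H Rep3. The cluster's own untested lectins were near 0: Clec4a4, which lies between Clec4a3 and Clec4b1, averaged 0.926 FPKQ in KO, 0.333 in R47H and 0.288 in WT, and Clec4b2 averaged 0.0496, 0.0601 and 0.0819 FPKQ. Around Clec12a and Clec7a, 4 other genes were tested. The autophagy gene Gabarapl1 rose in KO (0.46, SE 0.06, limma adjusted p = 6.92e-07) and in R47H (0.28, SE 0.06, limma adjusted p = 0.00124, lost with equal library sums), and the lectins Clec2d, Clec1b and Cd69 are given below. Around Clec5a, Agk fell in KO (-0.41) and R47H (-0.23), Ssbp1 rose (0.41 and 0.31), and E330009J07Rik did not pass (0.00 and -0.08). In R47H Agk was not called with only WT Rep1 to Rep5 as control, nor was Ssbp1 without R47H Rep2 and Rep3 together. The difference between members and neighbours was not tested.

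**Figure D4:**
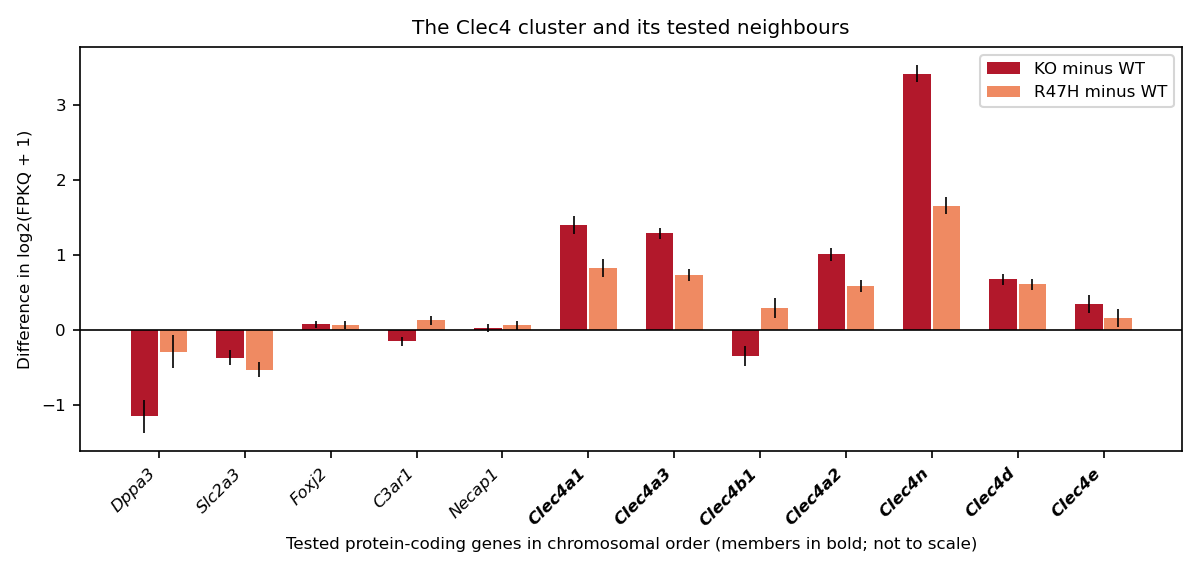
Difference in log2(FPKQ + 1) from WT (vertical axis) in KO and R47H for the tested protein-coding genes of the Clec4 cluster and up to 300 kb around it, in chromosomal order, with the SE. The members Clec4a1, Clec4a3, Clec4a2, Clec4n, Clec4d and Clec4e are above 0 in both mutants, Clec4b1 is at -0.34 in KO and 0.30 in R47H, and Dppa3 is at -1.15 in KO.

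The genes outside the family with the nearest patterns over the libraries were found by a search of all tested genes, and their likeness is not a test. The measure was the root mean square difference, over all 20 libraries, between 2 genes' log2(FPKQ + 1) minus their WT means. Nearest to Clec4n were Mmp14, a membrane-bound matrix protease (0.36), Thbs1, which encodes thrombospondin (0.386), Ms4a4a (0.425), Cd4 (0.513) and F13a1, a subunit of coagulation factor XIII (0.523). Ms4a4a averaged 178 FPKQ in KO, 66.3 in R47H and 25.1 in WT, and Mmp14 averaged 22.8, 5.41 and 1.85 FPKQ. The 5 genes had log2 differences of 0.95 to 1.54 in R47H, where Clec4n had 1.66. Nearest to Clec12a were the transcriptional repressor Bcl6 (0.112), Sms (0.132), Rtn4 (0.132), Lrrc20 (0.136) and the survival gene Bcl2l1 (0.138). Bcl6 averaged 20.3 FPKQ in KO, 41.7 in R47H and 44.9 in WT, and Bcl2l1 averaged 31.4, 67.9 and 69.3 FPKQ. In R47H the log2 difference was -0.28 for Sms and -0.23 for Rtn4, where Clec12a had -0.11.

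Other C-type lectins were mostly near 0, and most of those that were measurable were higher in KO. Of 46 listed, 11 were tested. This list, like those below, was chosen with earlier results of these data known, so its counts and p-values are descriptive. In KO against WT 7 rose and 1 fell, where 28.2% of all genes were higher and 23.7% lower, with a median log2 difference of 0.44 beside 0.01 for all genes. Clec10a and Mgl2, paralogous galactose-type lectins of macrophages, rose by 1.74 (SE 0.14, limma adjusted p = 9.08e-10) and 1.71 (SE 0.12, limma adjusted p = 6.21e-11). Clec10a averaged 156 ± 35.8 FPKQ in KO, 85.5 ± 18.4 in R47H (SD, n = 5 each) and 45.4 ± 7.75 in WT (SD, n = 10). Mrc1, the mannose receptor CD206, rose by 0.95 (SE 0.06, limma adjusted p = 5.43e-11), Clec2d by 0.52 (SE 0.11, limma adjusted p = 0.00045), Clec1b by 0.46 (limma adjusted p = 0.0108), Cd302 by 0.44 (limma adjusted p = 4.12e-07) and Cd93 by 0.21 (limma adjusted p = 0.00795). The call of Cd93 was lost with quantile normalization and with equal library sums, and that of Clec1b against WT Rep1 to Rep5 alone. Clec2i fell in KO (-0.38, SE 0.08, limma adjusted p = 0.000473). Cd69 (0.01) and Colec12 (0.25) did not pass in KO. In R47H against WT 5 rose and 1 fell, where 13.4% of all genes were higher and 7.83% lower. The median log2 difference was 0.15 beside 0.04 for all genes. Those that rose were Clec10a (0.89), Clec2d (0.66), Mgl2 (0.65), Cd69 (0.37) and Mrc1 (0.31), and Clec2i fell (-0.42). The call of Mrc1 was lost with equal library sums, and Cd69, near 1 FPKQ, had a limma adjusted p of 0.0364 and was lost without any 1 of WT Rep1, Rep5, Rep7 and Rep9 or R47H Rep2, Rep3, Rep4 and Rep5.

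Some genes that signal below the receptors were called in KO, as were 52% of all genes. Their list was chosen with earlier results of these data known, so its counts and p-values are descriptive. Of 19 adaptors, kinases, scaffolds and phosphatases, all tested, 5 rose and 3 fell in KO against WT, where 28.2% of all genes were higher and 23.7% lower, and the median log2 difference was 0.07 beside 0.01 for all genes. The kinase Syk was at 150 ± 5.39 FPKQ in KO, 124 ± 7.02 in R47H (SD, n = 5 each) and 95.03 ± 4.25 in WT (SD, n = 10). It rose in KO (0.65, SE 0.04, limma adjusted p = 1.97e-11) and in R47H (0.37, SE 0.04, limma adjusted p = 1.02e-06). The exchange factor Vav2 rose by 0.81 in KO (SE 0.07, limma adjusted p = 1.49e-09), the kinase Lyn by 0.55 (SE 0.05, limma adjusted p = 6.77e-09) and Inpp5d, the lipid phosphatase SHIP1, by 0.48 (SE 0.05, limma adjusted p = 8.54e-08). Ptpn6, the phosphatase SHP-1 that binds inhibitory motifs, fell in KO (-0.39, SE 0.05, limma adjusted p = 2.55e-06), as did Malt1 (-0.44, SE 0.12, limma adjusted p = 0.00323) and Cblb, a ubiquitin ligase that restrains Dectin signalling (-0.26, SE 0.05, limma adjusted p = 0.000338). Prkcd was called at 0.18 (limma adjusted p = 0.0454), but was at 0.02 and not called against only WT Rep6 to Rep10, and its call was lost without any 1 of WT Rep1 to Rep5, KO Rep1, Rep2, Rep4 and Rep5 or R47H Rep1 and Rep5. Ptpn11 (0.10) did not pass in KO.

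The adaptors, chosen after their values were seen, did not pass in KO. Fcer1g averaged 1505 ± 105 FPKQ in KO, 1638 ± 272 in R47H (SD, n = 5 each) and 1464 ± 151 in WT (SD, n = 10), with log2 differences of 0.04 (SE 0.09) in KO and 0.15 (SE 0.09) in R47H. Tyrobp averaged 1335 ± 120 FPKQ in KO, 1486 ± 160 in R47H and 1259 ± 99.5 in WT, with a difference of 0.08 (SE 0.07) in KO. Card9 averaged 25.2 ± 1.82 FPKQ in KO, 30.1 ± 1.18 in R47H and 26.3 ± 3.09 in WT. The sign of the Fcer1g difference in KO turned to -0.04 with quantile normalization or equal library sums, and that of Tyrobp to -0.01 with quantile normalization.

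In R47H against WT 10 of the 19 signalling genes rose and 0 fell, where 13.4% of all genes were higher and 7.83% lower, with a median log2 difference of 0.19 beside 0.04 for all genes, but this count depended on the scaling. It was 2 with quantile normalization and 3, of which 2 were lower, with equal library sums, and 6 rose when R47H Rep2 and Rep3 were left out. The call of Syk held under all 3. Lyn (0.24), Vav1 (0.20), Tyrobp (0.24), Prkcd (0.23), Ptpn6 (0.19) and Inpp5d (0.16) lost their calls under both other scalings, and Vav2 (0.27) lost its call with equal library sums. Single libraries decided some of these calls: Tyrobp was lost without R47H Rep1, Rep2 or Rep3, Inpp5d without R47H Rep1, Rep2 or Rep5, and Prkcd without R47H Rep1, Rep3 or Rep4 or WT Rep2, Rep4 or Rep5. In R47H against KO 4 rose and 4 fell, where 22.8% of all genes were higher and 18% lower. The higher ones included Ptpn6 (0.58, SE 0.06, limma adjusted p = 3.83e-07) and Cblb (0.37). The lower ones were Vav2 (-0.54), Lyn (-0.32), Inpp5d (-0.32) and Syk (-0.28).

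Most tested genes that Dectin or Mincle ligands are known to induce were lower in KO. The labels name no such ligand, so these are levels in culture and no response of the receptors was measured. This list too was chosen with earlier results of these data known, so its counts and p-values are descriptive. Of 21 listed, 12 were tested, and in KO against WT 10 fell and 1 rose, where 23.7% of all genes were lower and 28.2% higher, with a median log2 difference of -0.63 beside 0.01 for all genes. Tnf was at 6.57 ± 0.637 FPKQ in KO, 18.1 ± 3.91 in R47H (SD, n = 5 each) and 16.8 ± 1.72 in WT (SD, n = 10), and fell in KO (-1.23, SE 0.09, limma adjusted p = 2.75e-10). The chemokines Ccl2 (-1.50, SE 0.20, limma adjusted p = 1.48e-06), Ccl4 (-1.28, SE 0.14, limma adjusted p = 8.37e-08) and Ccl3 (-0.85, SE 0.12, limma adjusted p = 3.75e-06) and the early response gene Egr1 (-0.62, SE 0.12, limma adjusted p = 0.000242) fell as well. Il1b rose in KO (1.36, SE 0.10, limma adjusted p = 4.32e-10) and in R47H (0.80, SE 0.10, limma adjusted p = 9.09e-06), at 5.71 ± 0.514 FPKQ in KO, 3.57 ± 0.678 in R47H and 1.63 ± 0.394 in WT. In R47H against WT Il1b was the 1 gene of the 12 that was called, but the count was 4 against WT Rep1 to Rep5 alone, 3 against WT Rep6 to Rep10 alone, 4 with the replicate number as a block, 2 without WT Rep10 and 0 with a minimum mean of 5 FPKQ. Ccl4 (0.34), Ccl2 (-0.34) and Egr3 (-0.27) did not pass there, where 21.2% of all genes were called. In R47H against KO 9 of the 12 were higher and 1 was lower, where 22.8% of all genes were higher and 18% lower. The WT sets differed here too. Of the 12, 4 were higher in WT Rep6 to Rep10 than in WT Rep1 to Rep5, as were 3.63% of all genes. Against WT Rep1 to Rep5 alone the KO count was 6 lower and 1 higher.

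**Figure D5:**
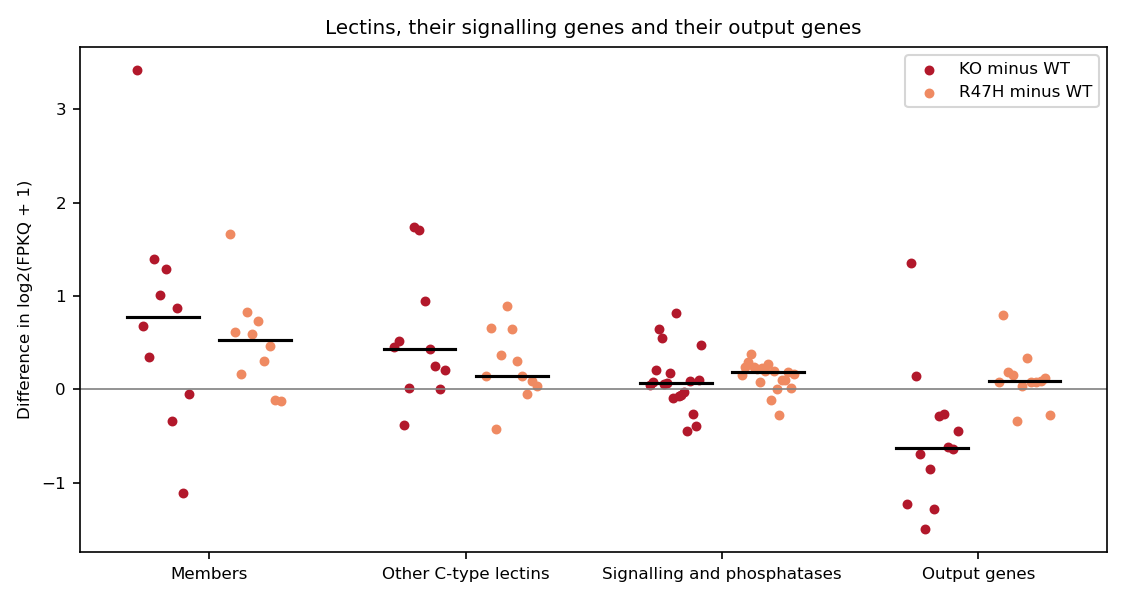
Difference in log2(FPKQ + 1) from WT (vertical axis) in KO and R47H for the 10 lectin members, the 11 tested other C-type lectins, the 19 signalling and phosphatase genes and the 12 tested output genes, with black bars at the medians. In KO the medians are 0.78, 0.44, 0.07 and -0.63 in that order.

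Among 13 myeloid transcription factors, 4 rose and 5 fell in KO, where 28.2% of all genes were higher and 23.7% lower. In R47H 4 rose and 1 fell, where 13.4% of all genes were higher and 7.83% lower. Tfec, a factor of the MiT family, rose in KO (0.95, SE 0.08, limma adjusted p = 2.83e-09) and R47H (0.41, SE 0.08, limma adjusted p = 0.000896), as did Cebpa (0.40 and 0.35) and Maf (0.85 and 0.28), the last not called in R47H under both other scalings or without R47H Rep2, Rep4 or Rep5, and Cebpa not called there without R47H Rep2 and Rep3 together. Irf8 (0.21) rose in KO, but not with equal library sums. Klf4 fell in KO (-0.88, SE 0.12, limma adjusted p = 1.7e-06) and R47H (-0.81, SE 0.12, limma adjusted p = 2.94e-05). Chosen after their values were seen, Spi1 fell in KO (-0.22, limma adjusted p = 0.0102) and Cebpb did not pass in KO (0.23).

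Some markers of cells that also carry these lectins were called. Beside them, 28.2% of all genes were higher and 23.7% lower in KO, and 13.4% and 7.83% in R47H. The neutrophil list of 14 genes, 7 of them tested, summed to 108 to 138 FPKQ in KO, 91.8 to 161 in R47H and 76.6 to 113 in WT. Most of the higher sum in KO than in WT came from Csf3r, which averaged 55.55 FPKQ in KO, 43.1 in R47H and 29.8 in WT. S100a8 averaged 17.95, 24.7 and 17.9 FPKQ in the same order, and S100a9 averaged 33.9, 47.5 and 33.6 FPKQ. Of the 7, Csf3r rose in KO (0.89, SE 0.08, limma adjusted p = 4.17e-09) and R47H (0.53, SE 0.08, limma adjusted p = 4.55e-05), Mmp8 rose in KO (1.17) and Ngp in R47H (0.54). The other 5 in each mutant did not pass, with log2 differences in KO of -0.02 for S100a8, 0.04 for S100a9, 0.17 for Ngp, -0.10 for Ltf and 0.29 for Mmp9, and in R47H of 0.41 for S100a8, 0.45 for S100a9, 0.24 for Ltf, 0.21 for Mmp8 and -0.08 for Mmp9. Of 6 monocyte markers, 4 were tested. Ccr2 fell in KO (-0.78) and R47H (-0.68), Chil3 rose (0.57 and 0.60, neither called against WT Rep1 to Rep5 alone), and the list summed to 36.0 to 57.0 FPKQ in KO, 35.5 to 52.6 in R47H and 40.5 to 58.1 in WT. The part of these cells in the levels of the lectins was not tested.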

How the data were processed

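The authors deposited 1 table per library with 51456 gene symbols and an FPKM-like value named FPKQ, per the file headers. RSEM and GRCm38 are named in the submitters' processing notes, while the sources used here give no version, setting or definition of FPKQ. Libraries were poly-A selected, strand specific and read as pairs of 75 bases, per the labels' protocols. Total depth is unknown. From low values of single-transcript genes 1 fragment was estimated as worth 0.0281 to 0.0432 FPKQ times kb (85.8% to 89.7% of these values were whole within 0.1 fragment), too few for a count test, so the fragment numbers are estimates that cover counting error only. RSEM can divide fragments between similar genes.

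Values were analysed as log2(FPKQ + 1) for genes averaging 1 FPKQ or more across the 20 libraries. This scale understates changes of low genes. All 3 groups, or 4 with WT divided by label number, were fitted with limma 3.58.1 (lmFit, eBayes with trend) in R 4.3.3 with Benjamini-Hochberg adjustment over the 10843 genes, called at 0.05. The fit was tested on simulated data. Exact permutation tests were two-sided over all ways to divide 10 libraries into 5 and 5. Summaries used Python 3.11.15, numpy 2.4.6 and pandas 2.3.3, and coordinates came from GENCODE M21.

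The members and lists were chosen with earlier results of these data known. Named were all members, Trem2, the genes of a list with the smallest adjusted p (up to 6 in KO, up to 4 in R47H), the 5 genes nearest in pattern to Clec4n and Clec12a, tested neighbours within 300 kb and defining markers. From the list of myeloid factors 1 gene is not reported here. Alternatives varied the pseudocount, filter, scaling, library weights, moderation, groups in the fit, WT set, label number as a block, and single libraries left out. Leaving out R47H Rep2 and Rep3 was added after seeing the data.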

Additional observations from a re-analysis of the deposited data

Results flagged for a closer look

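Values were examined in 213 groups of 5 or 10 libraries, and 13 held a library whose distance from its nearest neighbour passed Dixon's limit. Chance gives about 5% of groups.

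Among the members 1 value was marked: Clec12a in WT Rep8 was at 371 FPKQ, where the other WT libraries lay between 287 and 326. Of the other lectins, Mgl2 was at 10.8 FPKQ in R47H Rep4 (others 5.84 to 6.26), Clec2d at 75.3 in R47H Rep4 (others 112 to 123), Clec2i at 12.8 in R47H Rep5 (others 10.4 to 10.9) and Clec1b at 1.99 in R47H Rep2 (others 0.66 to 0.947). Clec1b was also low in WT Rep9, at 0.285 FPKQ (others 0.725 to 1.09). Without R47H Rep2 the log2 difference of Clec1b in R47H, 0.14 with it, was 0.00.

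Of the signalling and factor genes, Vav1 was at 77.8 FPKQ in KO Rep5 (others 90.9 to 93.5), Cebpa at 50.3 in WT Rep9 (others 35.7 to 41.5) and Spi1 at 163 in R47H Rep1 (others 205 to 222). Of the neutrophil markers, Mmp8 was at 3.28 FPKQ in R47H Rep1 (others 1.22 to 1.64), and Ngp was at 7.81 in KO Rep1 (others 4.98 to 5.73) and at 7.91 in WT Rep1 (others 3.36 to 5.68). The neighbour Gabarapl1 was at 142 FPKQ in KO Rep3 (others 123 to 128).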

How the results depend on the processing

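No called fold change of a member changed its sign under an alternative. The members called were 9 of 10 in KO against WT (7 to 9 with single libraries left out), 6 in R47H against WT (6 to 7) and 7 in R47H against KO (6 to 7). Between the WT sets the count of 1 became 0 without a filter on low values and with equal library sums, 3 with library weights, 2 in a fit of the compared groups alone and 0 to 2 with single libraries left out. The signalling count of 10 in R47H against WT became 2 with quantile normalization, 3 with equal library sums, 6 with R47H Rep1, Rep4 and Rep5 alone and 6 to 10 with single libraries left out. It was 7 to 9 in KO against WT and 8 to 9 in R47H against KO with single libraries left out. Other lectins called in KO numbered 15 of 40 without the filter and 8 in each fit with a single library left out, and in R47H 5 to 7. Output genes called in KO numbered 11, and 7 with WT Rep1 to Rep5 alone and 10 to 11 with single libraries left out. Those called in R47H numbered 1, and 0 with a minimum mean of 5 FPKQ, 4 with WT Rep1 to Rep5 alone, 3 with WT Rep6 to Rep10 alone and 1 to 2 with single libraries left out. The cause of these changes was not tested.

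Correlations of deviations between libraries with the same number ran from -0.254 to 0.341. Libraries with different numbers were not compared, nor were WT Rep6 to Rep10 with any mutant library. Whether the samples are paired is therefore not decided by these values. With the number as a replicate block, members called were 8 in KO, 6 in R47H and 7 in R47H against KO. Output genes called were 7 in KO and 4 in R47H. WT Rep6 to Rep10 share their numbers with no mutant library. In this fit each of them has a term of its own and adds nothing to the fitted differences. The setting therefore rests on WT Rep1 to Rep5 as control and is not independent of the fit with those alone.

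Equal library sums moved the median of all genes in R47H against WT by more than 0.1, to -0.07, with 20.7% of called genes higher (63.1% before, 48.6% with quantile normalization). The share was 36.1% in KO (54.3% before), and in R47H against KO 47.5% with quantile normalization and 51.0% with equal library sums (55.9% before). Under both scalings Clec12a passed as lower in R47H against WT. Depth limits Clec4b1 most, with at most 153 estimated fragments in a library.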
